A study of Mus musculus with 8 samples.

Results

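The interferon-inducible p200 family was examined through 5 of its genes, Mndal, Ifi203, Ifi204, Ifi205 and Aim2, in 2 mouse T cell leukemia lines. The genes were chosen by their symbols in the platform annotation, and the family was selected because Mndal was nearly absent from one of the lines in earlier results of these same arrays. Their difference between the lines is therefore given as a description, with no test. The array measured 18193 genes by a probe set of their own, and 4 of the 5 members were among them. Ifi205 was read only by probe sets that it shares with other genes. In all, 10 of 45037 probe sets named a member, 5 of them a member alone and 5 a member together with further genes.

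Proteins of the p200 family carry HIN domains that bind DNA, and most carry a pyrin domain that joins them to other proteins. Type I interferon induces most of the genes through STAT factors, which bind interferon response elements near the start of the gene. The family is best known from macrophages and other immune cells, where AIM2 senses DNA in the cytosol and activates caspase-1, and the mouse genes lie side by side on chromosome 1 in a cluster whose content is known to differ between inbred strains.

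Total RNA of 8 samples was hybridised to 8 arrays, 2 in each of 4 groups. All cells came from thymic leukemias of mice that lack E2a, the gene of the E proteins E12 and E47, and all are labelled as FVB/NJ, a strain into which the mutations were backcrossed according to the study's methods. The E2a-/- line has unaltered Lef1, and the Lef1F/F line has loxP sites in both copies of Lef1 besides the loss of E2a. Lef1 encodes a transcription factor through which Wnt signals act, and Cre recombinase removes the part between the loxP sites. Cells of each line were infected with MigR1, a retrovirus that carries GFP, or with MigR1-Cre, which adds Cre, and GFP+ cells were collected after 72 h. Each genotype was represented by 1 line, cultured from thymic cells of moribund mice, and the effect of genotype cannot be told apart from that of the line. The labels do not state whether arrays of a group came from separate cultures, so the p-values speak of the variation among these arrays alone, which may be technical.

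Levels below are intensities on a linear scale, and differences are on the log2 scale. The 10th percentile of an array lay between 50.8 and 51.2 and the median between 88.9 and 91 units, and values near the former show little more than the floor of the measurement. Of 10 T lineage markers measured, 8 had a mean above 180 units in the E2a-/- line and 9 in the Lef1F/F line, with summed intensities of 27832 to 28636 and 28090 to 35435 per array. The 12 markers of macrophages, monocytes and dendritic cells all lay at or below 180 in both lines, and their sum was 967 to 977 and 953 to 1000. The 7 B cell markers measured also lay at or below 180, with sums of 587 to 604 and 551 to 573. Of the stroma list, 2 of 8 markers exceeded 180 in the E2a-/- line and 4 in the Lef1F/F line, and their summed intensity ranged over 4885 to 5152 and 3775 to 4747. That sum hides opposite differences at a pair of its genes, given here after their values were seen. Col1a2, a collagen chain, had means of 4244 and 290, and Vim, the intermediate filament vimentin, had 130 and 3147. Of 7 natural killer markers measured, 1 exceeded 180 in either line, the granzyme Gzma at 6171 and 8581, and the list summed to 6467 to 6882 and 8027 to 10232. All 5 granulocyte markers measured lay at or below 180. The part of these markers in differences between the lines was not tested. The level of Lef1 at its brighter probe set was 6918 and 6126 in the Lef1F/F MigR1 arrays and 1903 and 1678 in the MigR1-Cre arrays, lowest where the titles give Cre. The brightest probe set of Tcf3, the gene known as E2a, read 583 to 880 over the 8 arrays, and where its probes lie relative to the deletion was not analysed here.

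Promoter sequence was inspected because the members differ in level although they are close relatives. RefSeq windows of assembly GRCm38.p6, which is built on C57BL/6J and not on FVB/NJ, were found for 4 of the 5 members and for 12 p200 genes in all, and Ifi204 had none. Each window ran from 250 bases before to 50 bases after an annotated start. The stretches below are the 150 bases that end just before the start, written 5′ to 3′ along the gene, for the members with a window and for Ifi202b, the p200 gene that opposed Mndal between the lines. Capitals mark matches to the core of the interferon response element, searched on both strands as GAAA, a spacer of 2 bases of any kind and GAAA again.
Mndal (chr1:173880188-173880337, minus strand): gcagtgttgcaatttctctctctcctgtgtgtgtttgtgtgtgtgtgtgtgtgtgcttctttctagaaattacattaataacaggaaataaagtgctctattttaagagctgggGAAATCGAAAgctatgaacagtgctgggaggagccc
Ifi203 (chr1:173942493-173942642, minus strand): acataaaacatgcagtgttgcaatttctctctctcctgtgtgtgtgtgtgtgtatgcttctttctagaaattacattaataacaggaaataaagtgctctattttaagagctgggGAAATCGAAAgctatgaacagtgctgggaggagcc
Ifi205 (chr1:174031756-174031905, minus strand): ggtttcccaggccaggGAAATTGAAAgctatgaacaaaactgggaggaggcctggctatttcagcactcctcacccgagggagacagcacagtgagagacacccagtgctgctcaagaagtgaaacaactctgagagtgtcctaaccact
Ifi202b (chr1:173982845-173982994, minus strand): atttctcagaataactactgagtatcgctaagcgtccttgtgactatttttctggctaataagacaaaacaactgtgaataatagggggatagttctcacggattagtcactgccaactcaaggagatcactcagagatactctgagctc
Aim2 (chr1:173420454-173420603, plus strand): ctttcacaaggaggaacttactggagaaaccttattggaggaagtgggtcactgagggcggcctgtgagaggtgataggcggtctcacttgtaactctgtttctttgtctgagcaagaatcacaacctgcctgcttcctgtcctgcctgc

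The core matched in 10 of 14 p200 windows, belonging to 9 of the 12 genes, whereas 1131 of 32851 windows of all genes held it (3.44%). In Mndal and Ifi203 the letters GAAATCGAAA began 36 and 35 bases before the start, and the 150-base stretches of the pair were the same at 138 positions when aligned end to end (92%). The same alignment of Mndal with Ifi211, the gene next to it, gave 95 positions (63.3%). Values near this also came from other pairs, such as Aim2 with Ifi205 (60.7%) and Ifi208 with Ifi202b (67.3%), while Ifi214 with Ifi209 reached 93.3%. The 63.3% is therefore not read as likeness. Ifi205 carried GAAATTGAAA 134 bases before its start and matched the core on the opposite strand 24 bases after it. Mndal and Ifi203 each have another annotated start, and in its window Mndal matched the core on the opposite strand and Ifi203 did not match. No window of Aim2 or Ifi202b held the core. The TCF/LEF motif CTTTGAT was in 0 of the 14 windows (3.73% of all windows), and CTTTGAA was in 3, those of Ifi206, Ifi213 and Ifi208 (5.14% of all windows). These are matches of letters in a reference strain and do not show that a factor binds.

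Mndal, which encodes a nuclear p200 protein with a pyrin domain, set the lines furthest apart. Its probe set 1452231_x_at had intensities of 2937 and 2983 in the E2a-/- MigR1 arrays, 2667 and 2744 in the E2a-/- MigR1-Cre arrays, 61.9 and 61.0 in the Lef1F/F MigR1 arrays and 50.9 and 60.7 in the Lef1F/F MigR1-Cre arrays. The second Mndal probe set, 1426906_at, had 2366, 2413, 2292 and 2301 in the E2a-/- line and 49.3, 52.0, 46.8 and 44.5 in the Lef1F/F line, in the same order of arrays. All 4 arrays of the E2a-/- line were bright and all 4 of the Lef1F/F line lay near the floor, whichever vector they had received. The means were 2833 ± 152 and 58.6 ± 5.17 for the first probe set (SD, n = 4 arrays per line), a difference of -5.60 on the log2 scale or 48.4-fold. For the second they were 2343 ± 56.8 and 48.1 ± 3.21, a difference of -5.61 or 48.7-fold. By size these were ranks 4 and 3 among the line differences of all 45037 probe sets. The gap was nearly equal under either vector at the first probe set, with -5.59 in the MigR1 arrays and -5.61 in the MigR1-Cre arrays. Since the Lef1F/F values stood at the 20.2 and 6.08 percentiles of their arrays, the floor limits the size of both differences. Intensities do not tell a transcript that is absent from one whose probed part is missing or altered, and the sequence of the locus in either line was not analysed here. In bulk RNA, fewer cells with a transcript and less of it per cell cannot be told apart.

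Over all members, arrays of the lines did not overlap at 9 of 10 probe sets, 6 of them lower and 3 higher in the Lef1F/F line, and 5 of the 9 differed by more than 1 on the log2 scale. This separation was common on the array, with 25.0% of all probe sets not overlapping between the lines and 20.5% past a limma adjusted p of 0.05. Because the members were selected on this contrast, their count carries no weight beyond description.

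**Figure D1:**
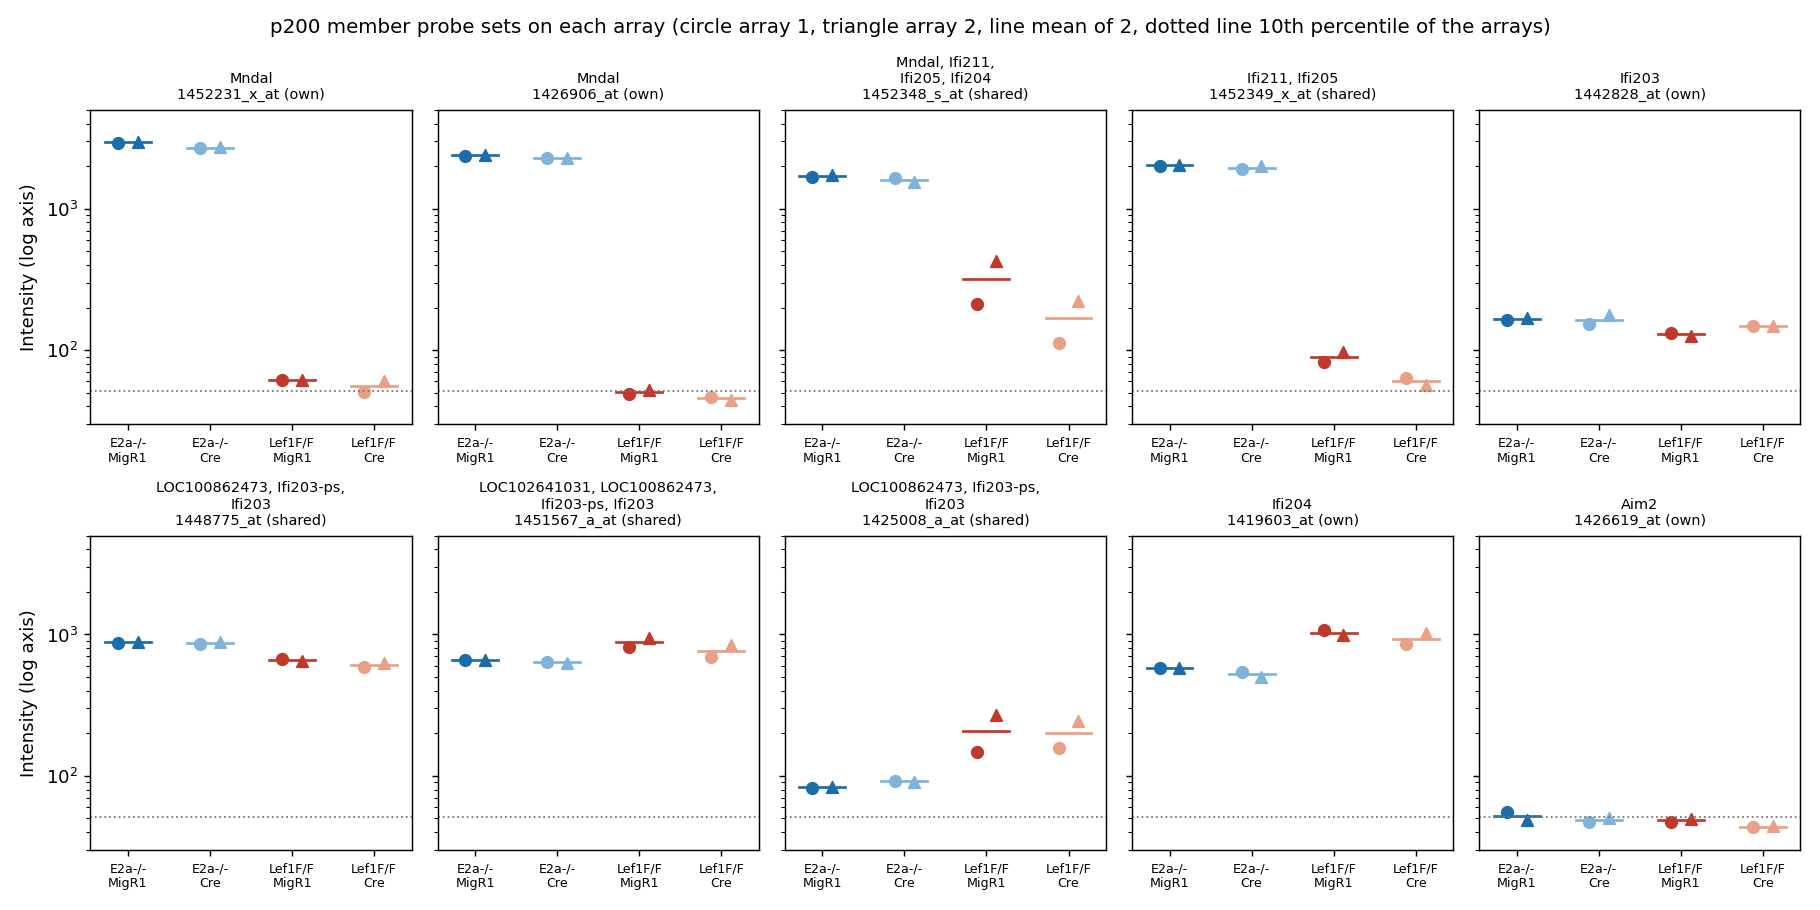
Intensity (logarithmic axis) of the 10 member probe sets on each of the 8 arrays, by group; circles are array 1, triangles array 2, short lines the mean of 2 arrays and the dotted line the 10th percentile of the arrays. The Mndal probe sets are bright in all E2a-/- arrays and near the dotted line in all Lef1F/F arrays, whereas Ifi204 is higher in the Lef1F/F line and Aim2 lies near the dotted line in every group.

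Both of the shared probe sets that match Ifi205 followed the direction of Mndal. Probe set 1452349_x_at matches Ifi211 and Ifi205, which encode further nuclear p200 proteins. It gave 2010, 2039, 1896 and 2014 in the E2a-/- line, then 82.2 and 97.3 in the Lef1F/F MigR1 arrays and 63.9 and 56.6 in the Lef1F/F MigR1-Cre arrays. The line means were 1990 ± 63.7 and 75 ± 18.3 (n = 4), a log2 difference of -4.76. Neither gene has a probe set of its own, so the share of Ifi205 in this signal cannot be told from that of Ifi211. Whether other relatives add to it was not tested.

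Probe set 1452348_s_at matches Mndal, Ifi211, Ifi205 and Ifi204 together. The E2a-/- arrays read 1679, 1742, 1641 and 1556. Those of the Lef1F/F line read 211 and 427 with the MigR1 vector, and 112 and 224 with Cre. The difference of the line means, 1654 ± 77.9 against 244 ± 132, was -2.92 on the log2 scale, smaller than at the Mndal probe sets. Within the Lef1F/F line the second array exceeded the first by 1.02 after MigR1 and by 1.00 after MigR1-Cre, so the spread between arrays of a group was wider than the step between vectors in this line.

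Ifi204, a nuclear p200 protein with roles in DNA sensing and in differentiation, went the other way between the lines. Its own probe set had 576, 582, 541 and 503 in the E2a-/- line and 1077, 985, 853 and 1016 in the Lef1F/F line. The groups of 4 arrays did not overlap, with means of 550 ± 36.5 and 983 ± 94.8 and a log2 difference of 0.83 (1.78-fold). In the chromosomal order of the genes Ifi204 is followed by the pseudogene Ifi203-ps and then by Mndal, so neighbouring genes of the cluster differed in opposite directions.

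Ifi203, a nuclear p200 protein encoded next to Ifi211, had probe sets that disagreed. The one that names it alone was slightly lower in the Lef1F/F line, with 164, 168, 152 and 177 against 132, 126, 147 and 148, means of 165 ± 10.3 and 138 ± 10.9 and a log2 difference of -0.26. The other 3 also match Ifi203-ps and unnamed loci. Of these, 1448775_at was lower in the Lef1F/F line (876 ± 11.1 and 635 ± 35.5, log2 difference -0.47). Probe set 1451567_a_at was higher (647 ± 16 and 824 ± 106, 0.34), as was 1425008_a_at (87.1 ± 5.06 and 204 ± 60.3, 1.18). All 4 separated the lines without overlap and in different directions, so no single direction is given for Ifi203. The probe set that names Ifi203 alone read above the floor in both lines. Probe sets 1448775_at and 1451567_a_at were brighter, but Ifi203-ps and unnamed loci share their signal. The sequence before the start of Ifi203 nearly matches that of Mndal in the reference strain. Whether this bears on the levels in these lines was not tested. At 1425008_a_at the second Lef1F/F array was again above the first, with 148 and 268 for MigR1, and 157 and 243 for Cre.

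Aim2, the cytosolic DNA sensor, was near the floor throughout. Its intensities were 55.4, 48.7, 47.5 and 50.7 in the E2a-/- line and 47.4, 49.5, 43.3 and 44.2 in the Lef1F/F line, and the lines overlapped. The means of 50.6 ± 3.51 and 46.1 ± 2.88 stood at the 9.17 and 3.8 percentiles of the array, so a level of Aim2 transcript was not shown in any group and a difference was not detectable.

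Of the other p200 genes, 4 were measured, by 7 probe sets, and Ifi202b stood out among them. Ifi202b encodes a p200 protein that lacks a pyrin domain and is known to restrain AIM2. Its own probe set had 501, 509, 507 and 506 in the E2a-/- line, 4627 and 3955 in the Lef1F/F MigR1 arrays and 2674 and 2614 in the Lef1F/F MigR1-Cre arrays. All Lef1F/F arrays exceeded all E2a-/- arrays, and the means of 506 ± 3.32 and 3467 ± 990 differed by 2.73 on the log2 scale (6.65-fold). A second probe set, which also matches an unnamed locus, gave 693 ± 60 and 4744 ± 1159, a difference of 2.75. Ifi209 had 2 probe sets, one lower in the Lef1F/F line (147 ± 9.42 and 87 ± 2.03, -0.76) and one whose arrays overlapped (254 ± 23.1 and 299 ± 39.4, 0.23). Both Ifi213 probe sets and that of Ifi207 had line differences of at most 0.13 in size. Ifi207, with line means of 47.3 and 51.8, and Ifi213 probe set 1444405_at, with 48.1 and 48.8, were near the floor. A level of transcript was therefore not shown at either. The other Ifi213 probe set, 1437636_at, had 108 and 101.

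The annotation places 13 distinct p200 genes from Aim2 to Ifi205, and 8 of them had a probe set of their own. Among the genes that could be read, the large differences lay near Ifi205, in Mndal downward and in Ifi202b upward. Ifi211 and Ifi203 lie between the pair. Towards Aim2 the cluster was read only in part. Ifi206, Ifi214 and Ifi208 were not measured there, and Aim2, Ifi207 and an Ifi213 probe set lay near the floor. Whether the differences are confined to the end near Ifi205 was therefore not shown. The probe sets that match Ifi211, all shared with other genes, were also lower in the Lef1F/F line, at -4.76 and -2.92. Of the 30 genes nearest the cluster, 15 on each side, 9 were measured. All 9 overlapped between the lines, with log2 differences from -0.06 to 0.07. Their line means were 47.4 to 119, so these neighbours were too dim to show whether expressed genes beside the cluster differed.

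**Figure D2:**
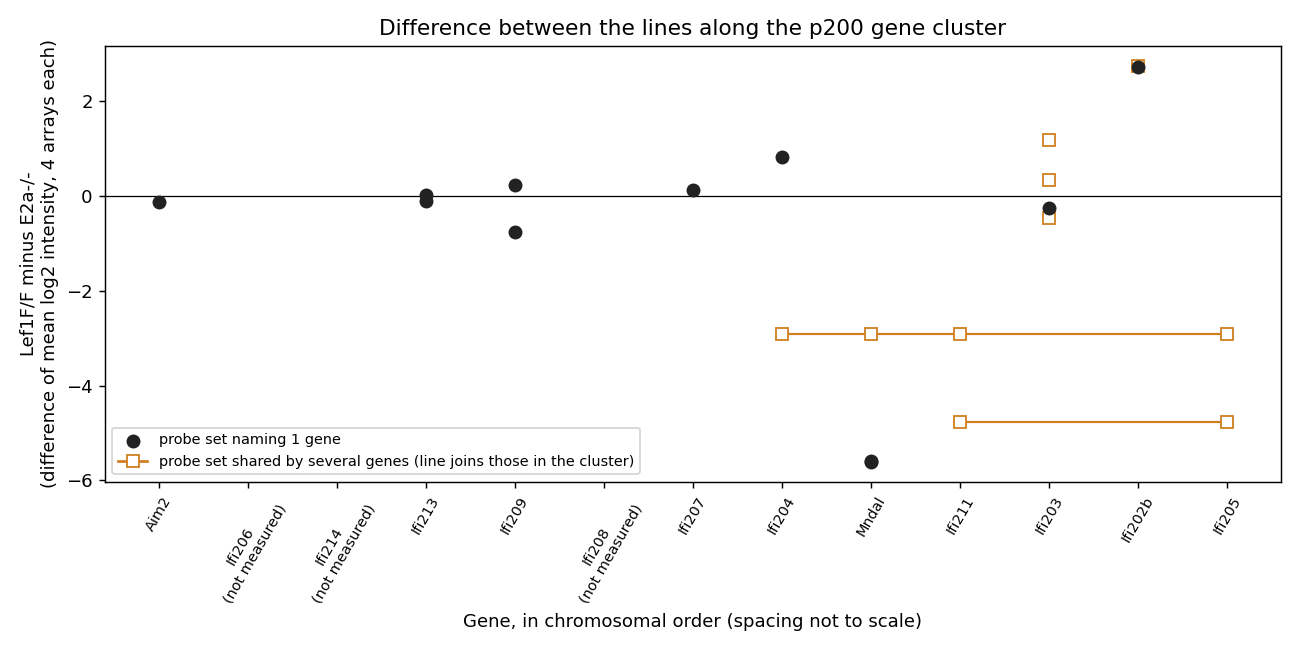
Difference of mean log2 intensity between the lines (Lef1F/F minus E2a-/-, 4 arrays each) for every p200 probe set, with the 13 genes in chromosomal order and equal spacing; filled points name 1 gene and joined open squares are shared. Mndal lies at -5.60 and -5.61, the shared probe sets that match Ifi205 at -4.76 and -2.92, and Ifi202b at 2.73 and 2.75. Aim2, Ifi213 and Ifi207 lie near 0, where Aim2, Ifi207 and an Ifi213 probe set read near the floor.

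Genes with a pattern most like that of each member were sought by the root mean square distance between log2 values over the 8 arrays, each profile centred on its own mean. Nearest to Mndal were Ybx3, a cold shock domain protein, with means of 3734 and 72.4 in the E2a-/- and Lef1F/F lines (distance 0.0917), Laptm4b, a lysosomal membrane protein, with 2332 and 48.8 (0.108), and Basp1, a membrane-associated signalling protein, with 2164 and 72.7 (0.373). These genes lie on chromosomes 6, 15 and 15, away from the p200 cluster. Nearest to Ifi204 were Kctd6, Ldlrad4 and Il15ra, at distances of 0.0703 to 0.0743. Those nearest to Ifi203 were Necab3, Itch and Ice2 (0.0458 to 0.0487) and those nearest to Aim2 were Fam120a, 2810001G20Rik and Zfx (0.0303 to 0.0368), where the members themselves hardly varied. Of the shared probe sets of Ifi205, the one with the highest mean log2 intensity, 1452348_s_at, lay closest to Pdgfc, Cd8a and Tcf4 (0.397 to 0.44). Over 8 arrays such distances mostly express the difference between the lines.

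The members were not chosen by their response to the Cre vector. The choice was not fully independent of this comparison, since it favoured a gene near the floor in the Lef1F/F line. A fall after Cre could hardly show there at the Mndal probe sets, which stood at the 20.2 and 6.08 percentiles. In the Lef1F/F line, where Cre acts on Lef1, 0 of the 10 member probe sets passed a limma adjusted p of 0.05 taken over all 45037 probe sets, against 75 called in all (0.167%). An unadjusted p under 0.05 was found at 4 of the 10, against 2100 of all probe sets. The log2 differences, MigR1-Cre minus MigR1, ranged from -0.92 to 0.19 with a median of -0.15, and 9 of 10 were below 0, beside a median of 0.00 over all probe sets. In the E2a-/- line 9 of 10 were below 0 as well. The 9 are not separate observations, since probe sets share transcripts and arrays, and Ifi203 probe set 1425008_a_at is among them at -0.03 but gave 0.40 without Lef1F/F MigR1 array 2 and 0.29 without MigR1-Cre array 1. For Mndal the differences were -0.14 ± 0.08 and -0.15 ± 0.06 (SE), at levels close to the floor. Ifi204 gave -0.15 ± 0.09, Aim2 -0.15 ± 0.08 and the Ifi203 probe set that names it alone 0.19 ± 0.08.

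Among the 10 member probe sets, those that match Ifi205 had the largest Cre differences in the Lef1F/F line. At 1452349_x_at the group means were 89.8 ± 10.6 after MigR1 and 60.3 ± 5.13 after MigR1-Cre (SD, n = 2 arrays). The groups did not overlap, and the log2 difference was -0.57 ± 0.09 (SE, limma adjusted p = 0.121). The MigR1-Cre mean lay near the floor. With 50 units added before the logarithm the difference was -0.34 (limma adjusted p = 0.224). At 1452348_s_at the difference was -0.92 ± 0.36 (limma adjusted p = 1), and the groups overlapped. This value depended on single arrays. It was -1.43 and -1.42 without Lef1F/F MigR1 array 1 or MigR1-Cre array 2. Without MigR1 array 2 or MigR1-Cre array 1 it was -0.41 and -0.42. Taken between arrays of the same number, the difference was -0.91 for array 1 and -0.93 for array 2. Earlier results of these arrays had shown that array 1 of one vector resembled array 1 of the other, and likewise array 2, with r = 0.9975 for each such pair across probe sets against 0.9945 and 0.9943 within a vector. A further fit took these pairs as a replicate block in the Lef1F/F line, with no such term for the E2a-/- arrays. Both probe sets passed in it, with limma adjusted p = 0.00884 and 1.95e-05, among 345 called in all (0.766%). The labels do not state that the arrays are paired, so these calls rest on a pairing read from the data.

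**Figure D3:**
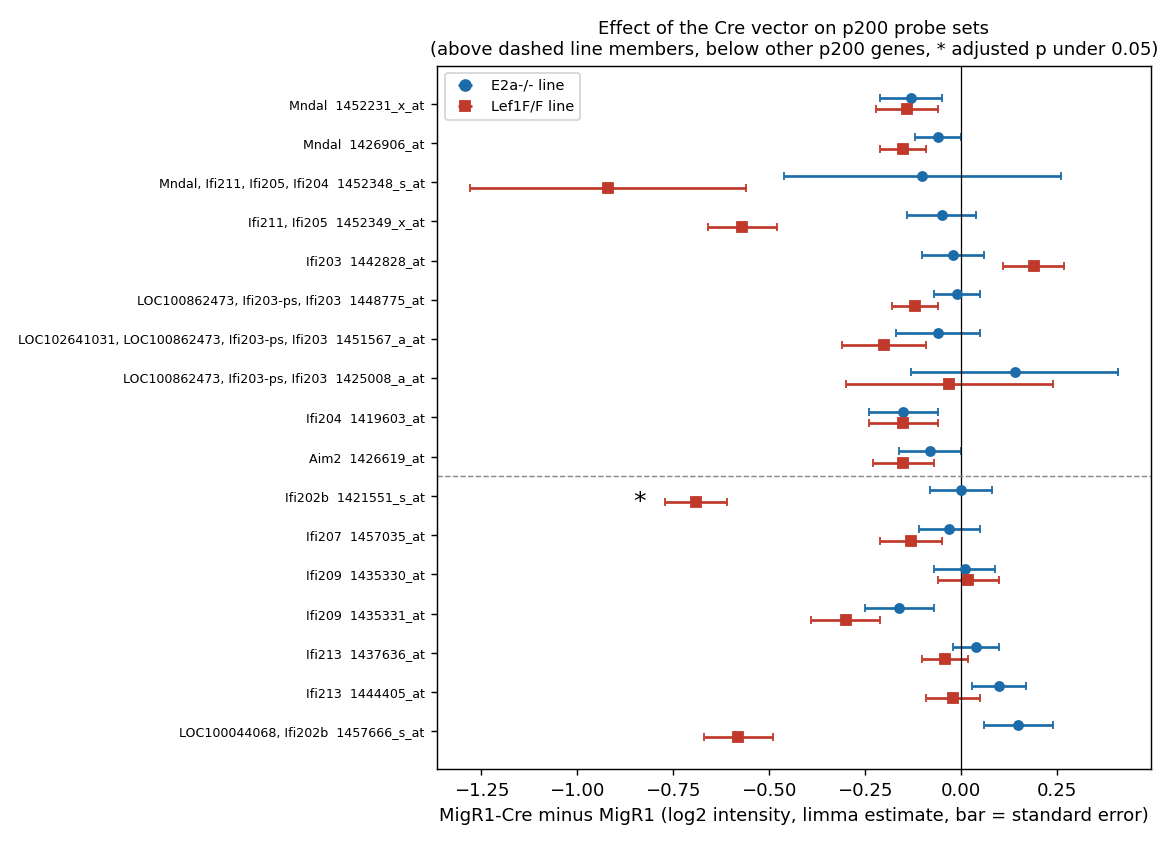
Log2 difference between MigR1-Cre and MigR1 (limma estimate, bars are standard errors) in the E2a-/- line (circles) and the Lef1F/F line (squares) for the 10 member probe sets, above the dashed line, and 7 probe sets of other p200 genes. The asterisk marks Ifi202b at -0.69, the 1 estimate past an adjusted p of 0.05; the Lef1F/F squares of both Ifi205-matching probe sets lie at -0.57 and -0.92, and the wide bars of the latter follow the spread between its arrays.

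With the vectors compared in the E2a-/- line, whose Lef1 carries no loxP sites, 0 of 10 member probe sets passed with limma, as did 0% of all probe sets, and 0 members had an unadjusted p under 0.05, against 836 probe sets in all. The differences ranged from -0.15 to 0.14 with a median of -0.06, and 9 of 10 were below 0. Mndal, which was bright in this line, gave -0.13 ± 0.08 and -0.06 ± 0.06 (SE). Which of these arrays received Cre rests on the titles and source names, since a further label field assigns MigR1 to all 4. That field also disagrees with the titles for the Lef1F/F MigR1 arrays, and the titles were followed there too. The difference between the Cre effects of the lines passed at 0 member probe sets and at 9 of all probe sets (0.0200%). At an unadjusted p under 0.05 there was 1 member probe set, against 1453 of all. With the replicate block it passed at 1 member probe set, 1452348_s_at (-0.82, limma adjusted p = 0.00186), against 0.191% of all. Without the block, leaving out single arrays moved that value between -1.33 (without Lef1F/F MigR1 array 1) and -0.31 (without MigR1 array 2). At 1452349_x_at the difference was -0.52, with limma adjusted p = 0.236 under the block.

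Ifi202b, again outside the selected members, fell when Cre reached Lef1F/F cells. The group means were 4291 ± 475 and 2644 ± 42.9 (SD, n = 2), a log2 difference of -0.69 ± 0.08 (SE, limma adjusted p = 0.021) or 1.62-fold. In the E2a-/- line its difference was 0.00 ± 0.08. The difference between these effects was -0.70 ± 0.11 and did not pass (limma adjusted p = 0.257), though it did with the replicate block (adjusted p = 0.0103). The second Ifi202b probe set gave -0.58 ± 0.09 among Lef1F/F arrays (adjusted p = 0.117 in limma, 0.00339 with the block) and 0.15 ± 0.09 in the E2a-/- line. The call was lost without any one of the E2a-/- arrays (limma adjusted p = 0.0921 to 0.101), without Lef1F/F MigR1 array 1 (0.0696) or either Lef1F/F MigR1-Cre array (0.131 and 0.132), and with the 4 Lef1F/F arrays alone (0.543). Over the single-array omissions the value itself stayed between -0.81 and -0.58. None of the other p200 genes passed in either line, and the nearest was the brighter Ifi209 probe set, with a Cre difference of -0.30 ± 0.09 in Lef1F/F cells (limma adjusted p = 0.742).

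The partners of the family were read from gene lists, each gene at its brightest probe set that names it alone. Of 17 measured genes of the AIM2 inflammasome and DNA sensing, 0 passed after Cre in the Lef1F/F line and the median difference was 0.01. Sting1, the adaptor of cytosolic DNA sensing, had the smallest p, at -0.32 ± 0.06 (limma adjusted p = 0.238, and 0.0345 with the replicate block), and Samhd1, a nucleotide hydrolase, gave 0.16 ± 0.09. Of 15 measured interferon receptors and signalling genes 0 passed, and the interferon regulatory factors Irf2 and Irf8 gave -0.33 ± 0.10 and 0.28 ± 0.08 (limma adjusted p = 0.663 and 0.705). Among 28 other interferon-induced genes 1 fell and 0 rose. It was Rtp4, a chaperone of receptors, at -0.57 ± 0.06 (limma adjusted p = 0.0163). Its means were 134 after MigR1 and 90.4 after MigR1-Cre, the latter close to the median of an array. The median difference of this list was -0.12 and 19 of 28 lay below 0, beside a median of 0.00 over all probe sets. In this contrast 57 of all 45037 probe sets fell and 18 rose (0.167% called). In the E2a-/- line 0 members of any of these lists passed, as did 0% of all probe sets, and the medians were 0.00, -0.03 and -0.01 in the order given. The smallest p there belonged, in the first list, to Il18, a cytokine matured by caspase-1 (-0.19 ± 0.07), and to Casp1 (0.09 ± 0.06). In the second they belonged to the signal transducer Stat2 (-0.13 ± 0.09) and the receptor gene Ifngr1 (-0.09 ± 0.07). In the last they belonged to Oasl2, a homologue of oligoadenylate synthetase (-0.26 ± 0.07), and to the ubiquitin ligase Trim30a (-0.19 ± 0.08). Limma gave an adjusted p = 1 for each. In that line Casp1 had a mean of 47.2, Oasl2 of 56.7 and Il18 of 62.6, near the floor. Of the 17 measured genes of the DNA sensing list, 9 had a mean above 180 in each line. At dim genes a change after Cre could hardly show. The difference between the lines in the effect of Cre passed at 0 members of the 3 lists, against 9 of all probe sets (0.0200%).

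**Figure D4:**
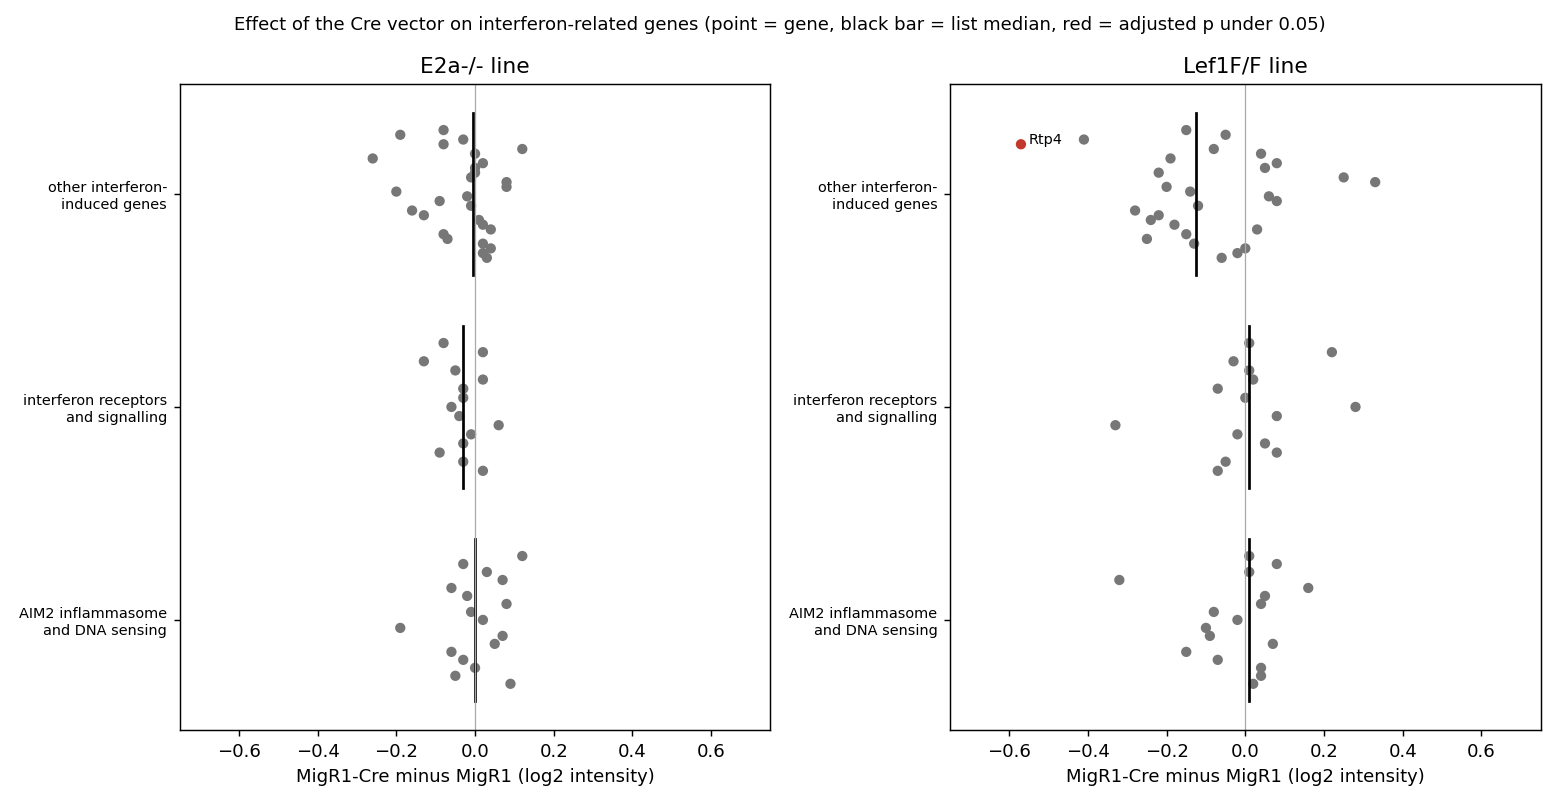
Log2 difference between MigR1-Cre and MigR1 for each gene of the 3 interferon-related lists, in the E2a-/- line (left) and the Lef1F/F line (right); black bars are list medians and red marks an adjusted p under 0.05. Rtp4 in the Lef1F/F line, at -0.57, is the 1 red point, and the median of the other interferon-induced genes is -0.12 there and -0.01 in the E2a-/- line.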

How the data were processed

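RNA from GFP+ cells was labelled for Affymetrix mouse genome arrays, whose version the sources give differently. The authors normalised the scans by RMA in RMAExpress (version not given in the sources used here) and deposited linear intensities, with no pooling. RMA makes the array distributions alike and compresses low values. Groups follow the sample titles and source names; a further label field that assigns the vectors otherwise was not used.

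Intensities were put on the log2 scale without an offset and fitted to 4 group means over all 8 arrays with limma 3.58.1 in R 4.3.3, after a check on simulated data. P-values are two-sided and adjusted by Benjamini-Hochberg over 45037 probe sets. Symbols came from the platform annotation (34945 probe sets with 1 symbol, 932 with several, 9160 with none). Promoter stretches were aligned globally in Biopython (match 1, mismatch -1, gap opening -2, extension -0.5).

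The text names every member and p200 probe set, up to 4 called genes of a list or else the 2 with the smallest p, and the 3 genes nearest each member. Members and lists were chosen with earlier results of these data known. Alternatives were eBayes with trend and robust options, removal of probe sets under the 40th percentile, the compared arrays alone, renewed quantile normalisation, array weights, an offset of 50, the replicate block and leaving out each array. The replicate block was a term for array number in the Lef1F/F line only.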

Additional observations from a re-analysis of the deposited data

How the results depend on the processing

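The line difference of Mndal changed in size with an offset, from -5.60 to -4.73 with 50 units added before the logarithm, since its Lef1F/F values are at the floor. Leaving out single arrays gave -5.66 to -5.53. The number of member probe sets past the threshold after Cre in the Lef1F/F line rose from 0 to 2 with the replicate block, and for the difference between the Cre effects from 0 to 1. It stayed at 0 without any single array and under the other alternatives that could be fitted. Among single p200 probe sets, 6 values passed newly under an alternative, 8 lost a call, all 8 at Ifi202b, and 4 line differences moved by more than the spread between arrays. A further 933 kept their call or, for differences between the lines, moved by less than that spread. The sign of a Cre effect, or of the difference between the effects, turned in 23 cases, of which 0 had passed the threshold before or after, and the cause was not tested. In 2 of them it turned in another processing, to 0.01 at Ifi203 probe set 1448775_at in the E2a-/- line with renewed quantile normalisation, and to 0.05 for the difference between the effects at Mndal probe set 1452231_x_at with the offset. In the other 21 an array was left out, and the omissions gave these ranges. After Cre in the Lef1F/F line the log2 difference was -0.46 to 0.40 at Ifi203 probe set 1425008_a_at, -0.02 to 0.06 at Ifi209 1435330_at and -0.08 to 0.04 at Ifi213 1444405_at. In the E2a-/- line it was -0.18 to 0.01 for Aim2, -0.13 to 0.09 at the probe set that names Ifi203 alone, -0.03 to 0.01 at Ifi203 1448775_at, -0.09 to 0.11 at Ifi209 1435330_at, -0.02 to 0.09 at Ifi213 1437636_at and -0.11 to 0.05 for Ifi207. The difference between the effects was -0.60 to 0.25 at Ifi203 1425008_a_at, -0.16 to 0.03 for Aim2, -0.14 to 0.11 at Mndal 1452231_x_at and -0.10 to 0.11 at Ifi209 1435330_at. The number of arrays limits every error given here, and where Mndal and Aim2 lie near the floor a change after Cre may be understated by an amount that was not measured.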

Other observations

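The interferon lists differed between the lines in both directions, and the genes named here were chosen after their values were seen. Each gene was read at its brightest probe set that names it alone. Arrays of the lines did not overlap for 17 of the 28 other interferon-induced genes measured. Of these 17, 6 were lower and 11 higher in the Lef1F/F line. The share over all probe sets was 25.0%, but that includes dim and repeated probe sets of a gene, so the figures are not like for like. Among the 17 measured genes of the AIM2 inflammasome and DNA sensing, 1 was lower and 3 were higher without overlap. For the 15 measured interferon receptors and signalling genes the numbers were 4 and 5. Ifih1, which encodes the RNA sensor MDA5, had means of 77.8 ± 6.63 and 396 ± 46.1 in the E2a-/- and Lef1F/F lines (SD, n = 4), a log2 difference of 2.34. Samd9l, an interferon-induced inhibitor of growth, had 77.6 ± 8.58 and 220 ± 51.2 (1.48). In the opposite direction, Bst2, which encodes the membrane protein tetherin, had 875 ± 41.2 and 432 ± 11.1 (-1.02). Cgas, the DNA sensor that signals through STING, had 551 ± 23.9 and 228 ± 6.65 (-1.28). It was the 1 lower gene of the DNA sensing list, in which Casp8, Sting1 and Ikbke were higher by 0.79, 0.49 and 0.25.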
